A study of Homo sapiens with 2 samples.

Results

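The genes described here are CBX5, CBX3 and CBX1, which encode the heterochromatin protein 1 (HP1) proteins HP1α, HP1γ and HP1β, and TRIM28, which encodes a corepressor that HP1 binds. The members are all peaks listed under the 4 Ensembl gene IDs in both peak lists of a CLIP-seq series for the RNA-binding protein Musashi-2 (MSI2). This gave 93 peaks of 51163 in all, with 43 of 25920 in replicate 1 and 50 of 25243 in replicate 2, under 4 gene IDs of 8801. CBX5 was chosen by its number of reproducible peaks in these same lists, among the highest of all genes. Its peak and overlap counts, and the closeness and strength of its peaks, are therefore descriptions and support nothing. The libraries came from NB4, a human cell line of acute promyelocytic leukaemia, grown in serum-containing medium with no stated treatment. For each, cells were crosslinked with ultraviolet light at 400 mJ per square centimetre and MSI2 was recovered with an antibody against it. Both libraries belong to 1 group, and libraries of input RNA, of a control antibody or without MSI2 were not analysed here, so MSI2 binding cannot be told apart from repeatable background.

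HP1 proteins read methylated histone H3 through a chromodomain and pair through a chromoshadow domain, which also docks partner proteins. They pack silent chromatin at centromeres and other repeats. TRIM28 (KAP1) is brought to DNA by zinc finger repressors of the KRAB family and gathers HP1 and the histone methyltransferase SETDB1 there. Musashi proteins bind short motifs with a UAG core, mostly in messenger RNA, and change its translation or stability. The values below concern peaks on the transcripts of these genes and not the proteins on chromatin.

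The name of each deposited peak closes with a whole number of 3 or more. It is taken here as the peak's strength and called the tally, since it is larger where the p-value is smaller (Spearman rho across peaks -0.94 and -0.92), while its unit is nowhere stated. The sum of tallies was 155598 for replicate 1 and 133644 for replicate 2, the median peak had 4 in both, and the depth of sequencing is unknown. A peak is called shared when a peak of the other replicate overlaps it on its own strand by at least 1 nt, and a shared peak of replicate 1 is called reproducible. Positions are hg19, counted from 1. Peaks of one gene are not replicates of each other and the design has 1 group, so no test was run, and the 95% intervals cover counting error only. The exact binomial intervals of tallies also assume that a tally is a number of reads.

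The 4 transcripts differed widely in how many peaks they carried. CBX5 had 28 peaks in replicate 1 and 28 in replicate 2, and 15 of each were shared. CBX3 had 8 and 6, of which 6 and 6 were shared. TRIM28 had 6 and 16, of which 5 and 5 were shared, and CBX1 had a single peak in replicate 1 and none in replicate 2. Over the whole series, 35.7% of replicate 1 peaks and 37.3% of replicate 2 peaks were shared, 63.1% of gene IDs had peaks in both lists and 45.5% had a reproducible peak. The HP1 family was thus split, with many peaks on CBX5, several on CBX3 and 1 weak one on CBX1, although the files give no transcript levels for NB4 against which to set these numbers. No peak of any other gene ID, on either strand, lay inside the span of peaks of CBX5, CBX3, CBX1 or TRIM28, so none of their peaks is also listed under another ID.

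**Figure D1:**
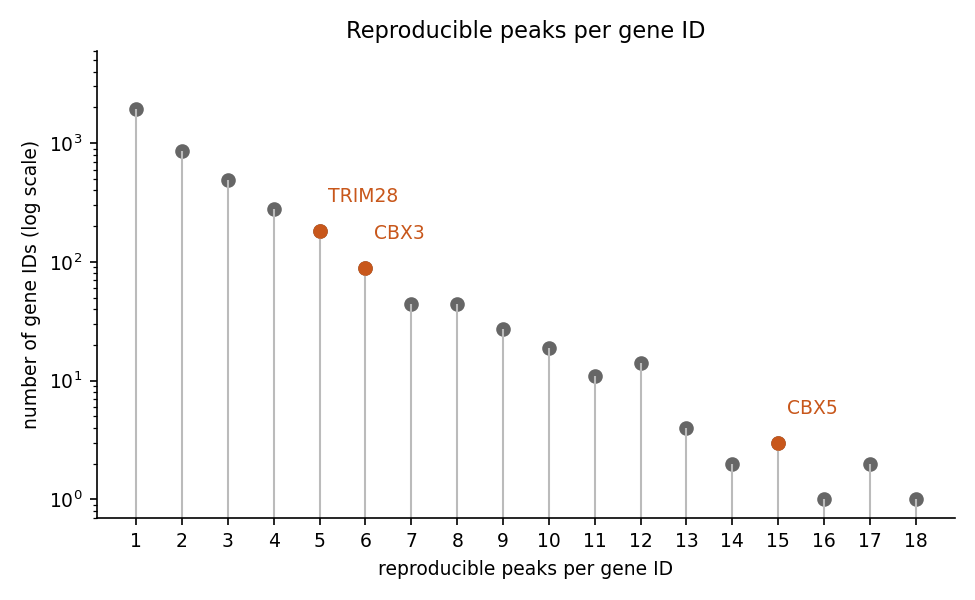
Number of gene IDs (vertical axis, log scale) by their number of reproducible peaks (horizontal axis), over the 4001 gene IDs with at least 1. CBX5 stands among the 3 gene IDs with 15, CBX3 among 89 with 6 and TRIM28 among 181 with 5, and CBX1 has 0 and is not drawn.

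CBX5 (ENSG00000094916.9), the HP1α gene, lies on the minus strand, and its peaks span chr12:54624954-54651385, or 26.4 kb. Its 15 reproducible peaks put it at rank 5, level with 2 other gene IDs, where the highest count was 18 and the median over the 5552 gene IDs with peaks in both lists was 1. Its 28 peaks put it at rank 4 of all gene IDs in replicate 1, level with 1 other, and rank 14 in replicate 2. It stood higher still for crowding, which follows in part from the number of peaks. Within 10 kb it held 27 peaks in replicate 1, the most of any gene ID, and 27 in replicate 2, where only one gene ID held more, with 32.

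All but 1 of the 56 CBX5 peaks lay in a run of 10.5 kb at the 3′ side, at chr12:54624954-54635489. The exception was a replicate 2 peak with a tally of 5 at chr12:54651347-54651385, 15.9 kb from the nearest other peak and with no partner in replicate 1. The run held peaks along its length, though in uneven numbers. Counted by kilobase from its 3′ end, each of the first 10 kb held between 1 and 6 peaks in replicate 1 and between 1 and 5 in replicate 2, with at least 1 shared peak in each. The median gap between neighbouring peaks was 264 nt in replicate 1 and 285 nt in replicate 2. Long 3′ untranslated sequence is known for CBX5 messenger RNA, but without exon positions for hg19, where the run lies in the transcript is not reported here.

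The 3′-most 10% of the span held 16 of the 56 CBX5 peaks, or 28.6% (Wilson interval 18.4% to 41.5%). The 56 pool both libraries and include 30 shared peaks, so a shared site counts once per library. The interval treats all 56 as independent and is likely too narrow. The first and last peaks set a span, so genes with few peaks have a high share there by construction, and CBX5 was not set against other genes on this measure. The value depends on the single distant peak, which sets the span. Without that replicate 2 peak the span is the run itself, and 8 of 55 peaks, or 14.5%, lay in its 3′-most 10%.

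**Figure D2:**
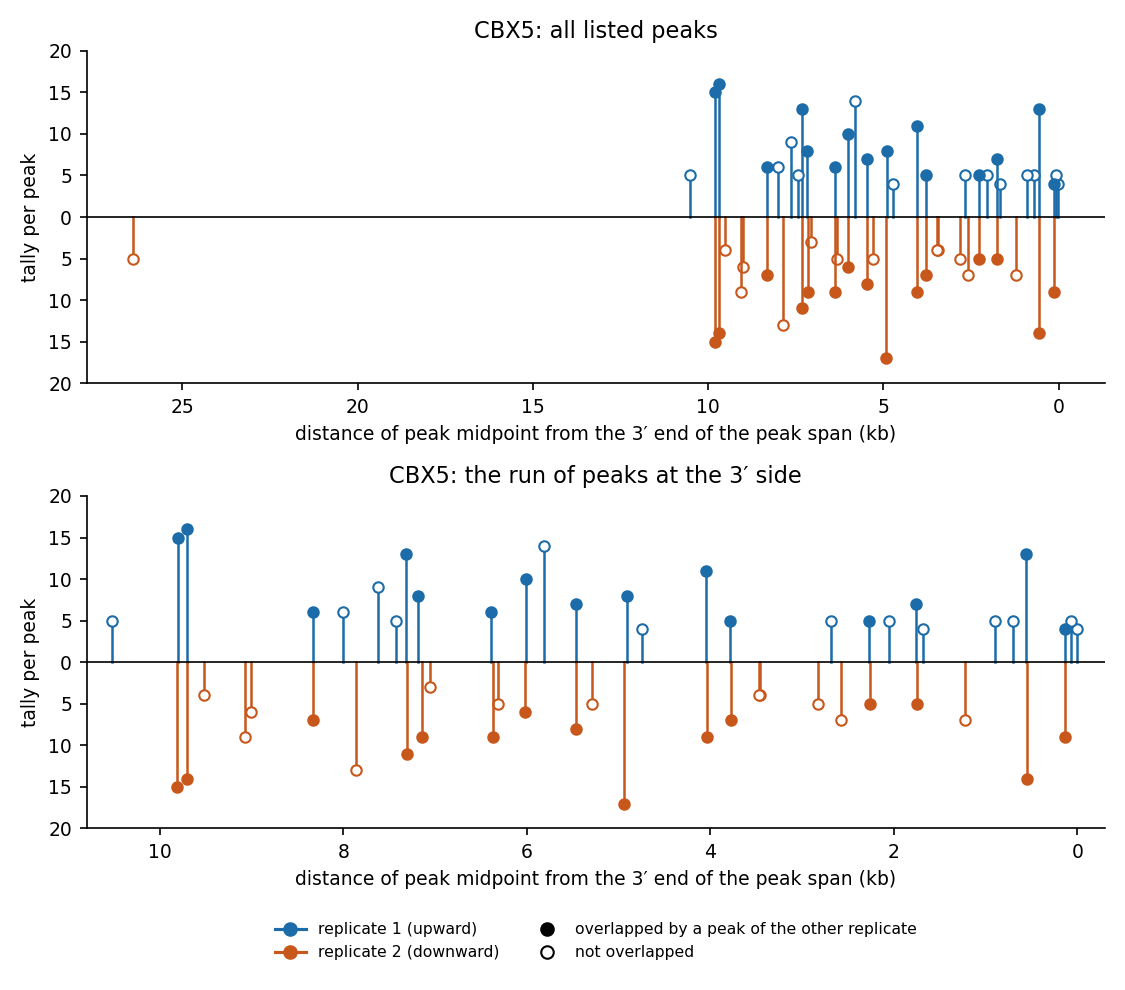
Tally of each CBX5 peak (vertical axis) against the distance of its midpoint from the 3′ end of the peak span in kb (horizontal axis, 5′ to 3′ from left to right). Replicate 1 points up and replicate 2 down, and filled circles are shared peaks; the upper panel shows all 56 peaks with the lone one of replicate 2 at 26.4 kb, and the lower panel the run of 55.

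As a set, CBX5 peaks were stronger than the lists at large, but none was extreme. CBX5 was chosen by its shared peaks, and strong peaks recur more often, so higher tallies can follow from that choice. In replicate 1 their tallies ran from 4 to 16 (median 6), and in replicate 2 from 3 to 17 (median 7), against a median of 4 in each whole list. Tallies of 10 or more were held by 7 of 28 CBX5 peaks in replicate 1, against 13.2% of that list. In replicate 2 they were held by 6 of 28, against 9.53%. The strongest CBX5 peak by the authors' p-value stood 6.34% of the way down the replicate 1 list and 4.11% down the replicate 2 list. The transcript's place among the top gene IDs therefore came with many peaks and without an extreme one, since the highest tallies in the lists were 92 and 106. Its peaks covered 1007 nt in replicate 1 and 1412 nt in replicate 2, which gave 20.9 and 15.7 tallies per 100 nt covered, against 13.9 and 13.4 over the whole lists. CBX5 held 0.135% of all tallies in replicate 1 and 0.166% in replicate 2.

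The 2 strongest sites of CBX5 in replicate 1 lay side by side near the 5′ end of the run. One was at chr12:54634623-54634688 in replicate 1, with a tally of 16 and a deposited p of 4.93e-08, and at chr12:54634622-54634687 in replicate 2, with 14 and 2.86e-07. Its neighbour was at chr12:54634727-54634790 with a tally of 15 in replicate 1, and at chr12:54634734-54634793 with a tally of 15 in replicate 2. At both sites the libraries gave nearly the same bounds and the same strength. These p-values are the authors' own for each peak and are used only to describe and rank peaks within a list.

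Other sites of the run with tallies above 10 in both libraries lay far from that pair. The site nearest the 3′ end of these, chr12:54625482-54625540, had tallies of 13 in replicate 1 and 14 in replicate 2, and the centres of the short inner intervals that the lists give within each peak coincided. The site at chr12:54632244-54632301 had 13 and 11. Strong recurrent sites thus stood near both ends of the run and within it.

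Over the 15 shared pairs of CBX5, inner centres lay a median of 6 nt apart (range 0 to 43 nt), and 12 pairs had them within 10 nt. Over the 9528 overlapping pairs listed under the same gene ID in the series, the median was 7 nt and 65.2% were within 10 nt. The CBX5 sites were therefore placed about as closely as those of the whole series. The tally was higher in replicate 1 in 5 pairs, equal in 2 and higher in replicate 2 in 8. Replicate 1 held 48.0% of the pairs' tallies (exact binomial interval 42.0% to 54.1%), against 54.3% over all pairs. The pair with the widest gap in tally had 8 at chr12:54629839-54629885 in replicate 1 and 17 at chr12:54629816-54629971 in replicate 2. That replicate 2 peak, 156 nt wide, is the widest of CBX5, and this was the one pair of the 15 whose exact interval for the replicate 1 share (14.9% to 53.5%) missed the series' value.

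**Figure D3:**
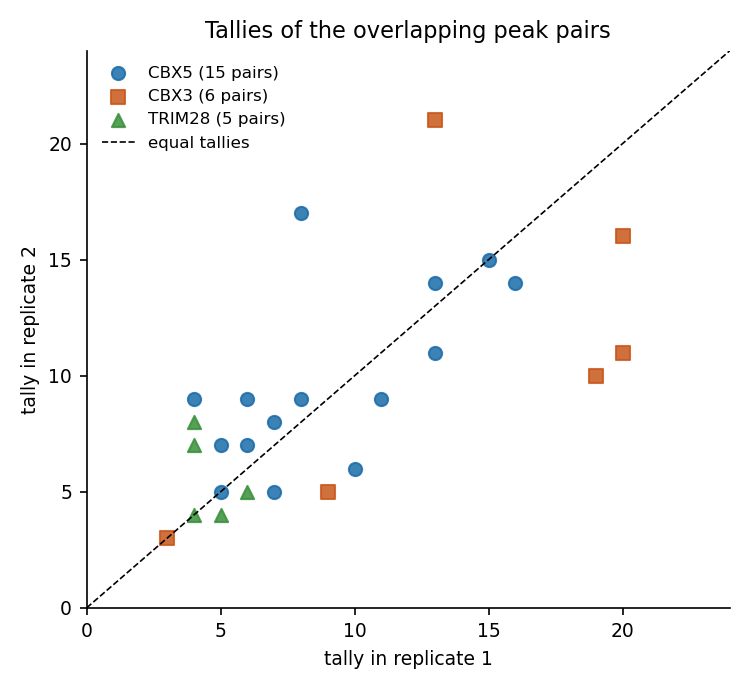
Tally in replicate 2 (vertical axis) against tally in replicate 1 (horizontal axis) for each overlapping pair of peaks of CBX5, CBX3 and TRIM28, with the line of equal tallies; identical pairs lie on top of each other. CBX5 pairs lie on both sides of the line, 3 CBX3 pairs with tallies of 19 or 20 in replicate 1 lie below it, and the TRIM28 pairs stay at 8 or less in both libraries.

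The 13 CBX5 peaks of each replicate without a partner were mostly weak, with a median tally of 5 in each, against 8 and 9 for the shared ones. Strong ones were among them. A replicate 1 peak at chr12:54630729-54630811 had a tally of 14 and a deposited p of 9.05e-06, yet the nearest replicate 2 peak was 136 nt away. A replicate 2 peak at chr12:54632771-54632863 had a tally of 13 and a deposited p of 2.01e-05, with the nearest replicate 1 peak 92 nt away. Of peaks with tallies of 10 or more, 6 of 7 in replicate 1 and 5 of 6 in replicate 2 were shared for CBX5, against 87.1% and 89.4% in the lists. Of the unshared peaks, 6 of the 13 in replicate 1 and 4 of the 13 in replicate 2 lay within 100 nt of a CBX5 peak of the other library. With replicate 2 peaks extended by 100 nt on each side, 21 of the 28 CBX5 peaks of replicate 1 were overlapped, against 43.8% of the list. Replicate 2 peaks of CBX5 were crowded, with a median gap of 285 nt. Extended peaks there meet others more often by construction, so these 2 shares are not directly comparable.

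Taken as a share, 53.6% of CBX5 peaks were reproducible (Wilson interval 35.8% to 70.5%), above the list's 35.7%. The comparison has to allow for tally, because strong peaks recur more often. If each CBX5 peak had recurred at the rate of all listed peaks of its own tally, 14.6 would have been shared in replicate 1 and 17.7 in replicate 2, against 15 observed in each. Those rates allow for tally but not for crowding, which was high for CBX5. The effect of crowding on these counts was not tested. If overlap had to cover 50% of both peaks, 9 of the 28 CBX5 peaks of replicate 1 would count as shared, against 26.8% of the list. The number of CBX5 peaks was high in the series, as the choice of this gene favoured, and crowding follows in part from number. At equal tallies, the count of shared CBX5 peaks was within 1 peak of the list's rate in replicate 1 and under it in replicate 2. By base, the libraries shared 569 nt of the run, which was 56.5% of what replicate 1 peaks covered and 41.4% of what replicate 2 peaks covered, while replicate 2 peaks covered 13.0% of the run as a whole.

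**Figure D4:**
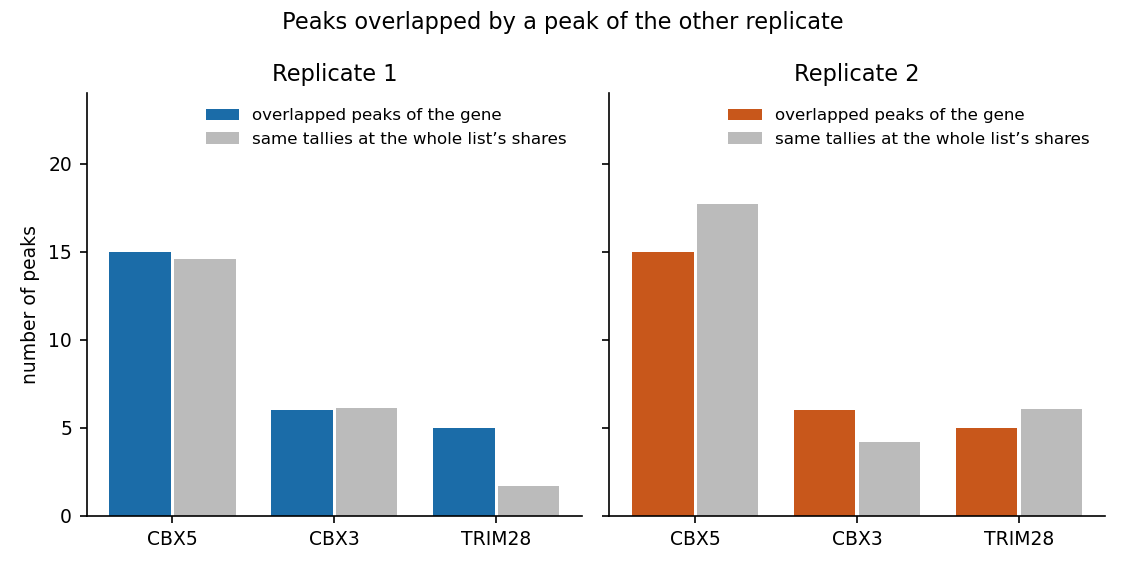
Number of peaks overlapped by a peak of the other replicate (coloured bars) for CBX5, CBX3 and TRIM28, beside the number that the same tallies would give at the recurrence rates of the whole list (grey bars, tallies of 15 and more pooled). The bars are 15 and 14.6 for CBX5 in replicate 1, and TRIM28 in replicate 1 has 5 against 1.66; CBX1, with 1 unshared peak, is not drawn.

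CBX3 (ENSG00000122565.14), the HP1γ gene, lies on the plus strand, with peaks over 6.91 kb at chr7:26245998-26252906. Unlike CBX5, it had few peaks in all, and most of them had high tallies. The median tally was 12 in replicate 1 and 10.5 in replicate 2, and 6 of 8 and 4 of 6 peaks had tallies of 10 or more, against 13.2% and 9.53% of the lists. Its strongest peaks stood 1.46% and 2.19% of the way down the lists. Per 100 nt covered it had 21.9 and 17.9 tallies, close to CBX5 on the same scale, on a total of 479 nt and 368 nt covered.

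CBX3 peaks fell in 3 places. The 5′-most site, at chr7:26245998-26246096 in replicate 1 and chr7:26246025-26246113 in replicate 2, had tallies of 20 and 11. A weak site in the middle, at chr7:26248052-26248066 in replicate 1, had a tally of 3 in each library and recurred all the same. The rest lay within 1045 nt at the 3′ end, which held 6 peaks in replicate 1 and 4 in replicate 2, and 78.1% and 78.8% of the tallies of CBX3.

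In that 3′ cluster the libraries gave the same main sites with different weights. Tallies were 19 in replicate 1 and 10 in replicate 2 at chr7:26251862-26251918, and 20 and 16 at chr7:26251938-26252003. At chr7:26252638-26252709 they were 13 in replicate 1 and 21 in replicate 2, where the peak was wider at chr7:26252611-26252735. All 6 exact intervals for the replicate 1 share of a CBX3 pair held the series' value of 54.3%, so each gap was within its 95% counting interval if tallies are reads. All 6 replicate 2 peaks were shared, and the 2 replicate 1 peaks that were not, with tallies of 10 and 11, lay 16 and 113 nt from the nearest replicate 2 peak. The list's rates at the same tallies would give 6.11 shared peaks in replicate 1 and 4.20 in replicate 2, against 6 in each.

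**Figure D5:**
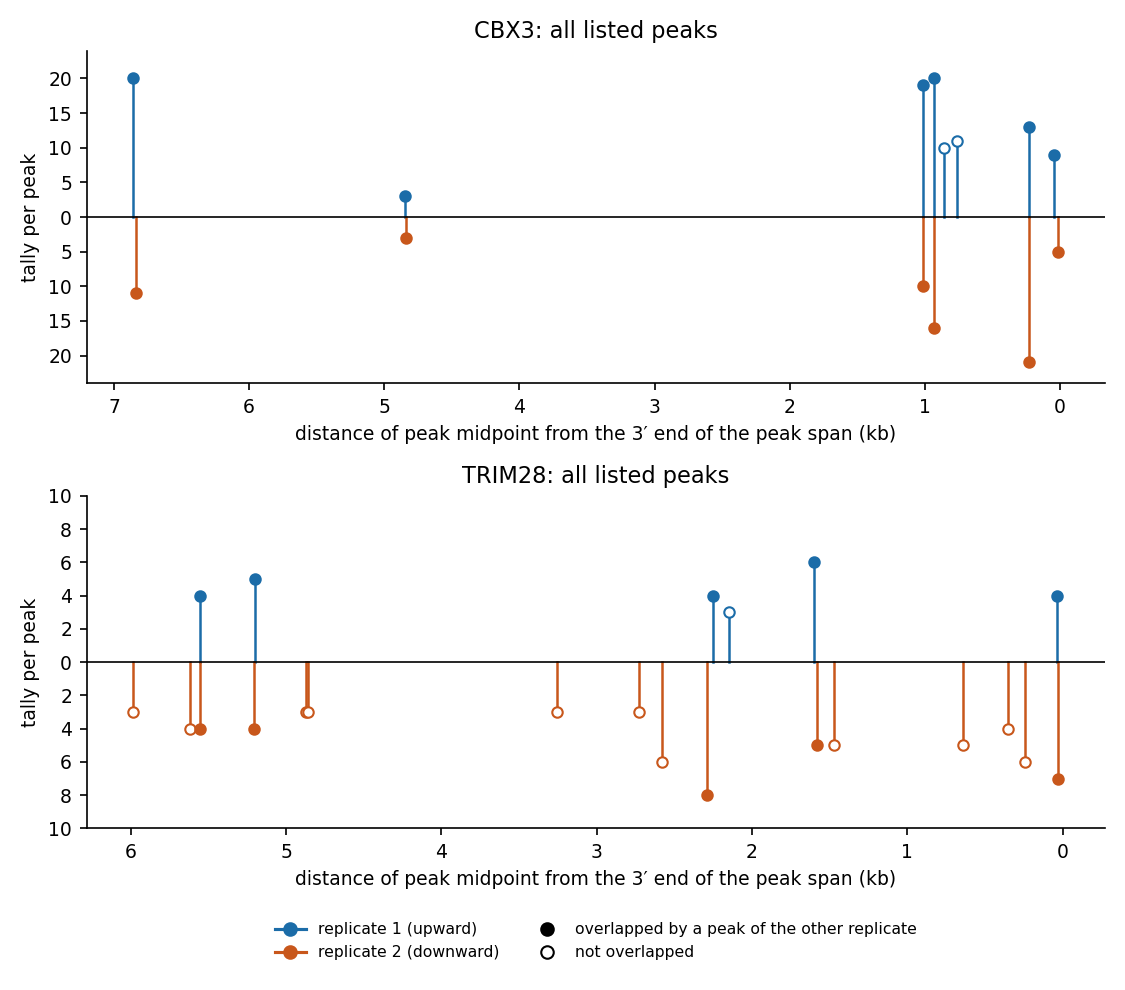
Tally of each peak (vertical axis, scaled separately) against the distance of its midpoint from the 3′ end of the gene's peak span in kb (horizontal axis, 5′ to 3′ from left to right), for CBX3 above and TRIM28 below. Replicate 1 points up and replicate 2 down, and filled circles are shared peaks; CBX3 tallies reach 20 and 21 at few places, while TRIM28 tallies stay at or below 8 along the whole span.

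CBX1 (ENSG00000108468.10), the HP1β gene, had 1 peak, in replicate 1, at chr17:46154302-46154344 on the minus strand. Its tally was 3, the lowest that the lists hold, with a deposited p of 0.0249, and 80.1% of the way down the list it was among the weaker entries. Over all replicate 1 peaks with tallies of 3 to 5, 19.7% were shared. The list's rate at a tally of 3 alone would give 0.119 shared peaks for the 1 peak of CBX1. Most peaks this weak thus had no partner in the other library, and a missing CBX1 peak in replicate 2 does not show that CBX1 RNA was unbound or absent.

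TRIM28 (ENSG00000130726.7), the HP1-recruiting corepressor gene, lies on the plus strand, with peaks at chr19:59056006-59062000. Split at gaps above 600 nt, its peaks fell into 3 groups, at chr19:59056006-59057147, chr19:59058743-59060553 and chr19:59061340-59062000. The break used for CBX3 was wider, at 1500 nt. No TRIM28 peak of either library lay between the first group and the next. Replicate 1 tallies ran from 3 to 6 and replicate 2 tallies from 3 to 8. Both libraries had a TRIM28 median of 4, the same as the whole lists. No TRIM28 peak reached a tally of 10 in either library, as few listed peaks did (13.2% and 9.53%). The strongest was at chr19:59059686-59059740 in replicate 2, with a tally of 8, where replicate 1 had a tally of 4 at chr19:59059725-59059776. Per 100 nt covered TRIM28 had 11.2 tallies in replicate 1 and 17.1 in replicate 2, against 13.9 and 13.4 over the whole lists, the widest relative gap between libraries among CBX5, CBX3 and TRIM28.

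Replicate 2 listed 16 TRIM28 peaks and replicate 1 listed 6. Replicate 2 thus held 72.7% of them, against a median of 50% over the 684 gene IDs with 15 to 30 peaks in total, of which 4.24% had a share this high. Chromosome 19 as a whole held 5.89% of replicate 2 peaks and 3.97% of replicate 1 peaks. Among its 25 gene IDs of the same size the median share of peaks in replicate 2 was 60%, and 5, TRIM28 included, reached the TRIM28 share. The part of this shift along chromosome 19 in the TRIM28 difference was not tested.

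The running numbers within the peak names add to this. TRIM28 numbers in replicate 1 reached a 12th entry although 6 peaks are listed, so 6 numbers are missing, whereas replicate 2 has no gap. In the whole lists 8.77% of running numbers in replicate 1 and 9.52% in replicate 2 were missing below the last one listed for a gene. CBX5 lacked 0 in replicate 1 and 3 in replicate 2, and CBX3 lacked none. No source used here says what the missing entries were.

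Of the TRIM28 peaks, 5 of the 6 in replicate 1 were shared, or 83.3% (Wilson interval 43.6% to 97.0%). The list's rates at the same tallies would give 1.66, and in replicate 2, where 5 of 16 were shared, or 31.25% (14.2% to 55.6%), they would give 6.06. Seen from replicate 1, more TRIM28 peaks recurred than the list's rate gives, while seen from replicate 2 the count was only slightly under it. The libraries also differed in how many TRIM28 peaks there were to overlap. The 5 pairs ran along the span from chr19:59056427-59056465, with tallies of 4 and 4, to chr19:59061944-59061986, with tallies of 4 in replicate 1 and 7 in replicate 2. With peaks of tally 5 or more alone, 1 of the 2 TRIM28 peaks left in replicate 1 was reproducible, against a list share of 43.7%, and with an overlap of 50% of both peaks 3 of the 6 were.

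The gene IDs most like CBX5 were sought over 961 gene IDs with 5 or more peaks in each replicate, peaks spanning 10 kb or more and a reproducible peak. Likeness was the distance over 4 values from the 2 libraries, namely the log2 numbers of peaks in each, the share of replicate 1 peaks that were shared and the median relative position of those, each divided by its SD. The nearest was ENSG00000108256.4 at chr17:27584114-27614621 on the minus strand, at a distance of 0.773, with 22 and 23 peaks and 12 reproducible ones. Next came ENSG00000119969.10 on the plus strand of chromosome 10, at a distance of 1.00, with 20 and 24 peaks and 9 reproducible ones. ENSG00000129351.13 on the plus strand of chromosome 19, at a distance of 1.01, had 20 and 22 peaks and 10 reproducible ones. The shared peaks of CBX5 had a median relative position of 0.79 along its span, where 1 is the 3′ end, against 0.85, 0.78 and 0.80 for these 3 and a median of 0.91 over the 961. Position was 1 of the 4 values, so these 3 were close to CBX5 on it by construction. Spans set by first and last peaks also enter the median over the 961. The CBX5 position rests on the lone 5′ peak of replicate 2. With the span set without it, the CBX5 value was 0.48, the nearest gene ID was ENSG00000204469.8, and the 3 named above stood at ranks 11 to 13, so these likenesses depend on 1 peak.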

How the data were processed

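CLIP-seq peaks for MSI2 in NB4 cells were analysed from the lists deposited for 2 replicates of 1 group. The tools named by the submitters' processing notes are STAR 2.3.0e, Bowtie 1.0.0 and cutadapt, on build hg19. No source used here names the peak caller. The deposited p-value of each peak was at most 0.05 and was used as given. The tally, a number within the deposited peak name, has no stated unit. Each library had its own list, and the labels do not say whether the replicates came from separate cultures.

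Members were taken by gene ID, with symbols as assigned for this work, and no gene coordinates of hg19 were used, so spans run from the first to the last peak in either replicate. Shares carry 95% Wilson intervals and tally shares exact binomial ones. The overlap step was tested on simulated data. The members and lists were chosen with earlier results of these data known. Named genes were the 4 members and the 3 gene IDs most like CBX5. Lists of other heterochromatin and Polycomb-type chromobox genes, motifs in peaks and protein identities were planned and not analysed here, because the gene names table used here holds no Ensembl IDs and no genome or protein sequence was used. Alternatives changed the overlap, the list and the peaks counted. Calculations ran in Python 3.11.15 with SciPy 1.17.1, pandas 2.3.3 and NumPy 2.4.6, and figures in matplotlib 3.10.9.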

Additional observations from a re-analysis of the deposited data

How the results depend on the processing

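Of 54 recomputed values, 40 stayed within 1.5 times the reported count or, for a share, within its Wilson interval (for a position, within 1 SD over peaks). The other 14 moved. The Wilson interval used for the CBX5 share in the 3′-most 10% of its span counts shared sites once per library. A reciprocal overlap of 50% left 9 reproducible peaks for CBX5 and 3 for TRIM28, with 26.8% of all replicate 1 peaks then shared. Shorter lists lower counts by construction. In the stronger 50% by p, 2 of the 2 TRIM28 peaks left in replicate 1 were shared, against 44.5% of the list. In the strongest 10%, 2 of 2 for CBX5 and 3 of 3 for CBX3 were shared, against 55.1% of the list, and TRIM28 and CBX1 had 0 peaks left. With tallies of 5 or more, TRIM28 kept 1 reproducible peak and a mean of 4.5 listed peaks per replicate, and CBX1 kept 0 listed peaks. Leaving out either replicate gave 28 to 28 listed peaks for CBX5 and 6 to 8 for CBX3, against means of 28 and 7. It gave 0 to 1 for CBX1 and 6 to 16 for TRIM28, against means of 0.5 and 11. The 3′-most 10% of the CBX5 span held 35.7% of replicate 1 peaks and 21.4% of replicate 2 peaks. That span was set by both replicates, so the replicate 1 share still depends on the lone replicate 2 peak. An alternative chosen after seeing the data set the span without the lone 5′ peak. The share over both libraries was then 14.5%, and the median relative position of shared CBX5 peaks was 0.48 against 0.79. No paired analysis was possible because the design has 1 group. Most peaks rest on few tallies, so recurrence of the TRIM28 and CBX1 peaks is poorly measured.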
